A study of Homo sapiens with 24 samples.

Results

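The CCT chaperonin subunits are the 8 genes TCP1, CCT2, CCT3, CCT4, CCT5, CCT6A, CCT7 and CCT8, and they were followed here over a time series of the human cell line K562. The members were chosen by name and matched to the gene identifiers of the deposited expression table. All 8 of 8 were found among its 12285 genes, and all passed the filter of a mean of at least 1 FPKM, which 12253 genes passed. FPKM counts sequenced fragments relative to the length of the transcript and to the size of the library.

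CCT, also called TRiC, is the chaperonin of the eukaryotic cytosol. It is a double ring in which each ring holds 1 copy of each of the 8 subunits, and it encloses a folding polypeptide in a chamber that opens and closes with ATP hydrolysis. Actin and tubulin are its best known clients, together with proteins built of WD40 repeats such as CDC20, an activator of the anaphase-promoting complex. Prefoldin hands unfolded actin and tubulin to CCT, and phosducin-like proteins bind CCT as cofactors.

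K562 is an established line from chronic myeloid leukaemia with erythroid properties. The cells carried no added agent or engineered allele according to the labels, were grown in RPMI with 10% bovine calf serum and P/S, and were made synchronous by centrifugal elutriation, which separates cells by size. Total RNA was sequenced from cells sampled every 2 h from 0 h to 46 h, which gave 24 libraries, each the only library of its time point. The study names 16 h and 18 h as time points whose levels depart from those of their neighbours across the transcriptome. The main results of the members that rest on these libraries are therefore given with and without them. Some counts of members are given over all 24 libraries only. Limma and JTK calls of other named genes are given over all 24 libraries only. The study also names 32 h as a milder case, at which CCT8 and CCT6A had their highest levels outside 16 h and 18 h.

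Each value is that of a single library, since no time point had a replicate. Read counts could not be recovered, because the lowest FPKM values formed no steps of whole reads, so the depth is unknown and no counting interval can be given. The FPKM values of a library summed to 456791 to 591309, with the highest sum at 18 h. All 9 of 9 erythroid markers were present in the table, with a summed level of 3800 to 7392 FPKM at the 22 hours other than 16 h and 18 h. Of 6 lymphoid markers 2 were in the table, with a summed level of 4.81 to 14.1 FPKM at those hours, and of 5 fibroblast markers 1 was, at 1.70 to 3.94 FPKM. In bulk RNA, fewer cells of one kind and less RNA per cell cannot be told apart.

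The stretches before the gene starts are shown because the members share a function and partly move together. They were read from RefSeq promoter windows (GRCh38.p14), of which 6 of 8 members had one at the start of the gene. CCT5 and CCT6A are not shown. Each run gives the 160 bases before the start, 5′ to 3′ on the strand of the gene. Capitals mark matches, on either strand, to CCAAT (the CCAAT box), GGGCGG (the GC box) and CGGAAG (the core bound by ETS factors). The windows lie at chr6:159789603-159789762 (minus strand, TCP1), chr12:69585299-69585458 (plus, CCT2), chr1:156338293-156338452 (minus, CCT3), chr2:61888672-61888831 (minus, CCT4), chr2:73234148-73234307 (plus, CCT7) and chr21:29073649-29073808 (minus, CCT8).
TCP1: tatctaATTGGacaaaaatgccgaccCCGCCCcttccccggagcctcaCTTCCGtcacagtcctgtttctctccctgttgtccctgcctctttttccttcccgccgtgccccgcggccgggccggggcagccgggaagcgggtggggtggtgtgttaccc
CCT2: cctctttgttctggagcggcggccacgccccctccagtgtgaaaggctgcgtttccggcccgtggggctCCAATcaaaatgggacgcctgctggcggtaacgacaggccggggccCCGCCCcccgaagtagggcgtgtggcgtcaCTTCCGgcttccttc
CCT3: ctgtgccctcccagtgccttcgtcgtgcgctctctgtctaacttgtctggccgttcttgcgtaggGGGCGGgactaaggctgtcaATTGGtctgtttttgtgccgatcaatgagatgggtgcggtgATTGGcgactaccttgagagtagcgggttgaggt
CCT4: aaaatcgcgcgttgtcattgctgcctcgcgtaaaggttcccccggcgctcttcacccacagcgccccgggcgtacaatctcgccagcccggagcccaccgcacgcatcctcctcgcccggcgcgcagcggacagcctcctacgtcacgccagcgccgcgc
CCT7: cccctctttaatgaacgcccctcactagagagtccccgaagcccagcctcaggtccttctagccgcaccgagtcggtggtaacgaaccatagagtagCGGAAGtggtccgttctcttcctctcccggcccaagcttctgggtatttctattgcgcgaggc
CCT8: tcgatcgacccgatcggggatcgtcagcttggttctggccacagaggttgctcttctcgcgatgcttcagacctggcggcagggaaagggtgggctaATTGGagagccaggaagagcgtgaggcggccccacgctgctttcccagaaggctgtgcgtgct

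The windows of TCP1, CCT2, CCT3 and CCT8 held the CCAAT box, which makes 4 of 6, against 24.5% of 35116 RefSeq windows of the same length. CCT3 held it at 2 places. The GC box was present in TCP1, CCT2 and CCT3 (3 of 6, against 37.5% of all windows). The ETS core was present in TCP1, CCT2 and CCT7 (3 of 6, against 12.98%). None of the 6 stretches held GAANNTTC, the paired unit of a heat shock element (3.51% of all windows), or the E box CACGTG (4.77%). The stretch of CCT4 held 0 of the 5 motifs. No motif overlapped another in these stretches. The counts hold for the stretches only. In the whole RefSeq windows at the gene starts, TCP1 had 1 heat shock element. There CCT7 and CCT8 had 1 GC box each, and CCT8 had 1 ETS core. Another window of CCT2, not at the gene start, also held 1 heat shock element. The E box was absent from all of these windows. Their counts have no share over all windows here. A match of letters is a description of the sequence and not a site of binding.

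Each subunit was an abundant transcript throughout. In FPKM, which is a level per transcript length, TCP1 (ENSG00000120438), the founding alpha subunit, had the highest median over the 24 libraries at 570 FPKM. It was followed by CCT8 (theta subunit, ENSG00000156261) at 459 FPKM, CCT5 (epsilon, ENSG00000150753) at 426 FPKM and CCT3 (gamma, ENSG00000163468) at 380 FPKM. CCT6A (zeta, ENSG00000146731) had 369 FPKM, CCT2 (beta, ENSG00000166226) 362 FPKM, CCT4 (delta, ENSG00000115484) 337 FPKM and CCT7 (eta, ENSG00000135624) 322 FPKM. The highest median was thus 1.77-fold the lowest, for proteins that the complex holds in equal number. Of all genes in the table, 98.5% had a median below that of CCT7.

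The order of the medians was the same without 16 h and 18 h. TCP1 was above CCT8 in 23 of 24 libraries, and CCT5 was above CCT3 in 23 of 24. CCT8 was above CCT5 in 20 of 24, CCT2 above CCT4 in 18 of 24 and CCT4 above CCT7 in 18 of 24. CCT3, CCT6A and CCT2 had no stable order, since CCT3 was above CCT6A in 15 of 24 libraries and CCT6A above CCT2 in 13 of 24. The ranges over the series overlapped for every pair of neighbours in the order.

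**Figure D1:**
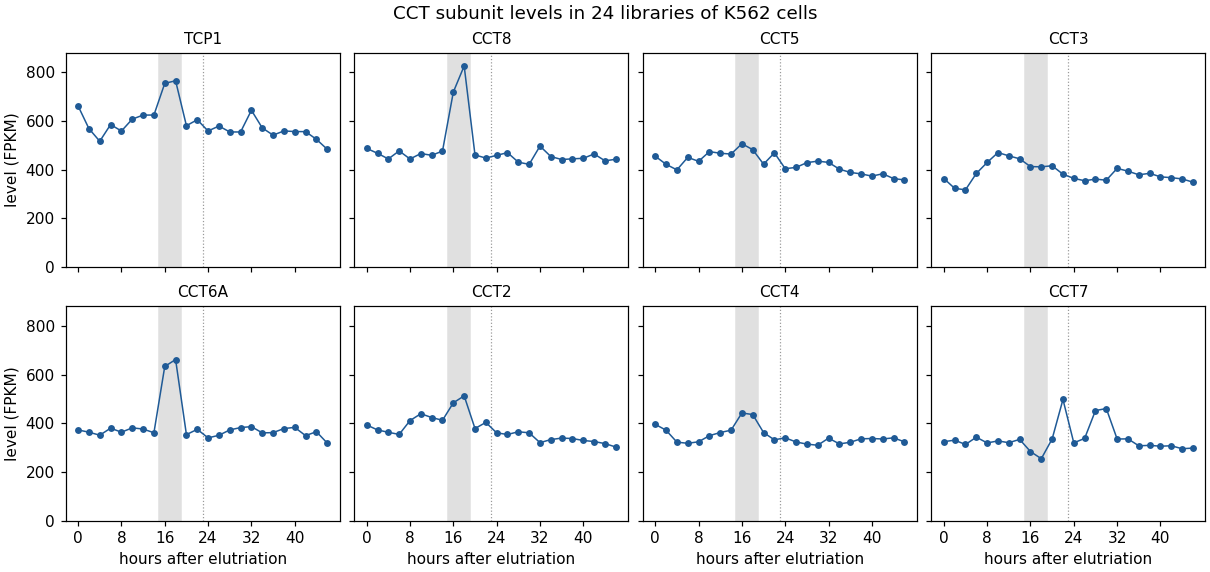
Level of each CCT subunit in FPKM (vertical axis, from 0) against hours after elutriation, 1 library per point, with the panels in the order of the medians; 16 h and 18 h are shaded, and the dotted line parts the first day from the second. CCT6A and CCT8 stand furthest above their neighbours in the shaded hours, and CCT7 is low there and high at 22 h, 28 h and 30 h.

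Outside 16 h and 18 h the members differed in how far they moved. TCP1 ranged from 484 FPKM at 46 h to 662 FPKM at 0 h. CCT8 ranged from 422 FPKM at 30 h to 497 FPKM at 32 h, and CCT6A from 318.5 FPKM at 46 h to 386 FPKM at 32 h. These last members were the steadiest, with coefficients of variation over the 22 hours of 4.06% for CCT8 and 4.52% for CCT6A. CCT4 ranged from 310 FPKM at 30 h to 396 FPKM at 0 h. CCT5 ranged from 358 FPKM at 46 h to 474.5 FPKM at 10 h, and CCT2 from 302 FPKM at 46 h to 439 FPKM at 10 h. CCT3 was lowest at 4 h (317.5 FPKM) and highest at 10 h (470.5 FPKM), and CCT7 ranged from 295 FPKM at 44 h to 498 FPKM at 22 h. The coefficient of variation of CCT7, 16.0%, was the highest of the members. Their median was 7.88%, against a median of 11.7% over the genes that reached a mean of 10 FPKM.

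The sum of the 8 levels ran from 2877 FPKM at 46 h to 3517 FPKM at 10 h at these 22 hours. It was 4237 FPKM at 16 h and 4351 FPKM at 18 h. As a share of the summed FPKM of the library it ran from 0.630% to 0.711%, and it was 0.748% at 16 h and 0.736% at 18 h. In the mean Z-score of the 8 members over the 22 hours, a per-gene scale with its zero at the mean of the gene, the highest values were those of 10 h (1.01), 0 h (0.96), 14 h (0.94) and 12 h (0.92). The lowest were −1.49 at 46 h, −0.81 at 44 h and −0.80 at 4 h. At 10 h and 12 h 7 of 8 members were above their own mean, and at 36 h and 46 h 0 of 8 were. On the first day 2 h, 6 h, 8 h and 20 h had 0.07 to 0.28. The value of 22 h was 0.73, with 5 of 8 members above their own mean and CCT7 at its highest level, 498 FPKM. On the second day 32 h had 0.59, with 6 of 8 members above their own mean, and the other hours were below 0. Most members were thus high at 0 h and from 10 h to 14 h, and most were low at 4 h and at the end of the culture. The same scores and counts are not given over all genes here, so this describes the members only.

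To describe the 2 irregular libraries, 14 h and 20 h were joined by a line, and the mean distance of 16 h and 18 h from it was taken on the log2(FPKM + 1) scale, with no test, since each time point is 1 library. The same measure at 16 pairs of consecutive hours that leave out 16 h and 18 h served as the spread between neighbouring libraries. CCT6A had 361 FPKM at 14 h, 633 FPKM at 16 h, 662 FPKM at 18 h and 353 FPKM at 20 h, which gave a deviation of 0.86 (1.81-fold). CCT8 had 477, 719, 826 and 461 FPKM at these hours and a deviation of 0.72 (1.64-fold). In the 16 other pairs CCT6A deviated by −0.11 to 0.10 and CCT8 by −0.18 to 0.14. Both were thus at their highest in the 2 irregular libraries, and neither overlapped its own range elsewhere. Of all genes, 87.4% had a lower deviation than CCT6A and 82.2% a lower one than CCT8. The share of all genes outside their own range is not given here.

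CCT7 went the other way, with 334 FPKM at 14 h, 284 FPKM at 16 h, 254 FPKM at 18 h and 335.5 FPKM at 20 h and a deviation of −0.32. This lay within its own range in the other pairs, −0.53 to 0.44, whose lower end is the pair of 24 h and 26 h, flanked by 22 h and 28 h, and whose upper end is the pair of 28 h and 30 h. In the 10 pairs that neither hold 22 h, 28 h or 30 h nor lie beside them CCT7 deviated by −0.06 to 0.05, and its value at 16 h and 18 h lay below all 10. CCT3 had 445, 413, 412 and 416 FPKM and deviated by −0.06, also within its range of −0.22 to 0.12. The remaining members deviated upwards in the values as deposited, TCP1 by 0.34, CCT2 by 0.33, CCT4 by 0.26 and CCT5 by 0.16, each above its highest other pair (0.15, 0.13, 0.05 and 0.07). They lay near the middle of all genes. Of all genes, 61.9% had a lower deviation than TCP1, 61.9% than CCT2, 57.2% than CCT4 and 51.2% than CCT5. Of these 4 members, CCT5 changed sign under upper-quartile scaling (−0.09), and TCP1 (−0.03), CCT4 (−0.07) and CCT5 (−0.18) changed sign once the trend with GC content was removed. Upper-quartile scaling left TCP1 at 0.09, CCT2 at 0.09 and CCT4 at 0.02, and CCT2 was at 0.05 without the GC trend, so that none of the 4 was then above its highest other pair as deposited.

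Of the 8 members, 0 lay 2-fold or more above and 0 lay 2-fold or more below their flanks. Over the 12253 genes, 8.95% lay 2-fold above and 7.11% below. At 1.5-fold, 2 of 8 members lay above, CCT6A and CCT8, against 23.9% of all genes, and 0 lay below, against 16.8%. The median deviation of the members was 0.30, beside 0.14 for all genes. Scaling moved the median of all genes to 0.02 after median centring and to −0.07 after upper-quartile scaling, and that of the members to 0.18 and 0.05. The 9 erythroid markers were low in the same libraries, where they summed to 2958 FPKM at 16 h and 2679 FPKM at 18 h. Their part in the result was not tested.

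**Figure D2:**
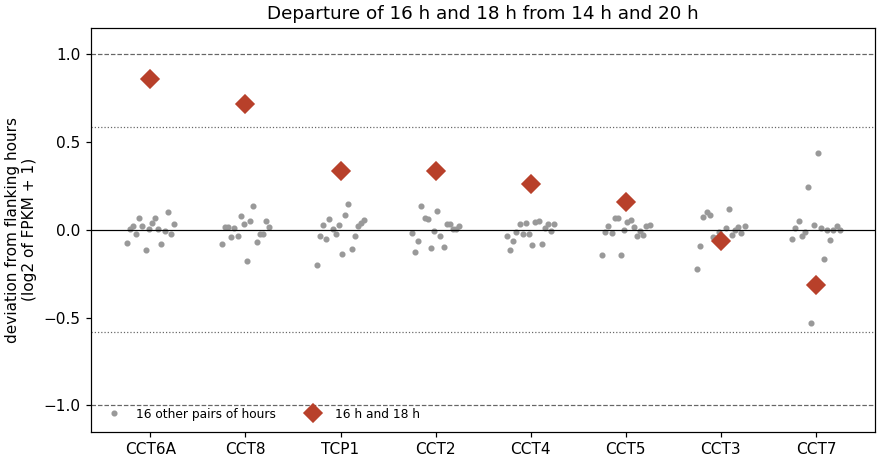
Deviation from the flanking hours on the log2(FPKM + 1) scale (vertical axis) for each subunit, with 16 h and 18 h as diamonds and 16 other pairs of hours as dots. Dotted lines mark 1.5-fold and dashed lines 2-fold; CCT6A at 0.86 and CCT8 at 0.72 lie past the dotted line, and the 16 other pairs stay within it for every subunit.

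Deviations at 16 h and 18 h followed GC content over the whole table. The median deviation fell from 0.56 in the first of 10 equal groups of genes ordered by the GC content of the transcript to −0.69 in the last. The members fell on both sides of the table's middle. CCT8 (43.1% GC), TCP1 (43.8%), CCT6A (44.1%), CCT5 (44.6%), CCT4 (44.7%) and CCT2 (45.9%) were below the median of all genes, 48.1%. CCT3 (51.2%) and CCT7 (51.3%), the 2 members below their flanks, were above it. With a smooth GC trend removed, the median of the members was −0.05, CCT6A stood at 0.50 and CCT8 at 0.32, and CCT7 at −0.34. The part of GC content in the values of single members was not tested.

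**Figure D3:**
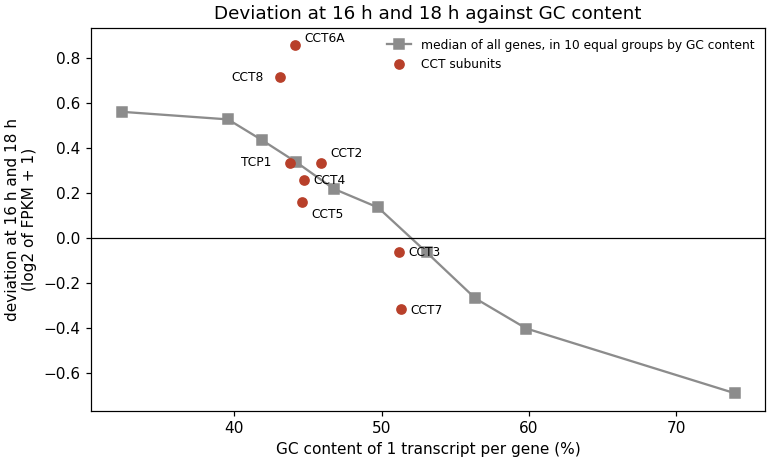
Deviation at 16 h and 18 h on the log2(FPKM + 1) scale (vertical axis) against the GC content of 1 transcript per gene in percent (horizontal axis). Squares are medians of 10 equal groups of all genes ordered by GC content, drawn at the middle of the range of each group, and dots are the 8 subunits; 6 subunits lie between 43.1% and 45.9% GC and above 0, while CCT3 and CCT7 lie near 51% and below 0.

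To ask whether the members followed an order in time, the JTK statistic was taken for a period of 24 h, the cycle length that the study assumed, with a permutation p from 100000 orderings of the time points, adjusted over all genes by the Benjamini-Hochberg method. This p treats any ordering of the libraries as equally likely, and a steady drift lowers it too. Of the 8 members 2 were called at an adjusted permutation p of 0.05 or below, beside 13% of all genes. CCT3 was called with a phase of 14 h and an adjusted permutation p of 0.0226. CCT7 was called with a phase of 6 h and an adjusted permutation p of 0.0392. CCT4 had 0.0801, and the other 5 had 0.458 to 0.933.

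CCT3 rose from 317.5 FPKM at 4 h through 385 FPKM at 6 h and 430 FPKM at 8 h to 470.5 FPKM at 10 h, and then fell to 364.5 FPKM at 24 h. On the second day it had 355 to 361.5 FPKM from 26 h to 30 h, 406 FPKM at 32 h and 349 FPKM at 46 h. The second rise was thus smaller than the first. Without 16 h and 18 h, CCT3 kept its call (adjusted permutation p of 0.0289), CCT7 lost it (0.127) and CCT4 had 0.217. The members called were then 1 of 8, beside 16.2% of all genes. With 22 h, 28 h and 30 h left out as well, a choice made after the values were seen, CCT3 was again the 1 member called, beside 19.8% of all genes. The call of CCT3 depended on the period, and its adjusted permutation p was 0.0807 at 20 h and 0.182 at 28 h.

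The second day was then compared with the first at matched hours, 0 h with 24 h, 2 h with 26 h and so on, in 12 pairs. The question was whether the members fell or rose between the assumed cycles. The fit was limma on log2(FPKM + 1) over the 12253 genes, with the hour as a block. Libraries of neighbouring hours are not independent, so its p-values are a guide. The members called lower were 2 of 8, CCT2 and CCT5, beside 5.15% of all genes. The members called higher by limma were 0 of 8, beside 9.44% of all genes. At an unadjusted p of 0.05 or below, 4 members were lower, beside 13.8% of all genes, and 0 were higher, beside 16.8%. These shares apply to each unadjusted limma count below.

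CCT2 had 354 to 513 FPKM on the first day (median 407 FPKM) and 302 to 365 FPKM on the second (median 335 FPKM). Its levels overlapped between the days only in the range from 354 to 365 FPKM. Its fitted difference was −0.28 (SE 0.067, limma adjusted p = 0.0122), 17.9% lower, and it was lower in 10 of 12 pairs. Without the pairs that hold 16 h and 18 h it was −0.22 with a limma adjusted p of 0.0154.

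CCT5 had 399.5 to 507 FPKM on the first day (median 460 FPKM) and 358 to 435 FPKM on the second (median 396 FPKM). The days overlapped between 399.5 and 435 FPKM. Its difference was −0.19 (SE 0.057, limma adjusted p = 0.0358), 12.6% lower, and it was lower in 11 of 12 pairs. Without the pairs that hold 16 h and 18 h it was −0.16, and the limma adjusted p was 0.0513, which missed the threshold.

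Without the pairs of 6 h, 16 h, 18 h and 32 h, limma called 3 of 8 members lower, beside 5.53% of all genes, CCT2 (adjusted p of 0.0177), CCT5 (0.0395) and CCT4 (0.0404).

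The other members were not called over all 12 pairs. CCT8 differed by −0.16 (SE 0.084), CCT6A by −0.16 (SE 0.092), TCP1 by −0.15 (SE 0.065), CCT4 by −0.15 (SE 0.052) and CCT3 by −0.10 (SE 0.054). For CCT6A and CCT8 the difference rested on the 2 irregular libraries, and without their pairs it was −0.03 and −0.04. Without those pairs TCP1 differed by −0.09, CCT4 by −0.10 and CCT3 by −0.09. CCT4 was lower in 11 of 12 pairs, with a limma adjusted p of 0.0716. That limma adjusted p was 0.0993 without the pairs of 16 h and 18 h, and 0.0282 after median centring. CCT7 differed by 0.03 (SE 0.090) and was higher in 7 of 12 pairs, and without the pairs of 16 h and 18 h it differed by −0.002. The median difference of the members was −0.15, beside −0.01 for all genes, and −0.09 beside 0.01 without the pairs of 16 h and 18 h. The lymphoid marker CD3D (0.63) and the fibroblast marker COL1A2 (0.35), the 1 member of each list that entered the fit, were higher on the second day, at means of 7.05 and 2.93 FPKM. Their part in the result was not tested.

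**Figure D4:**
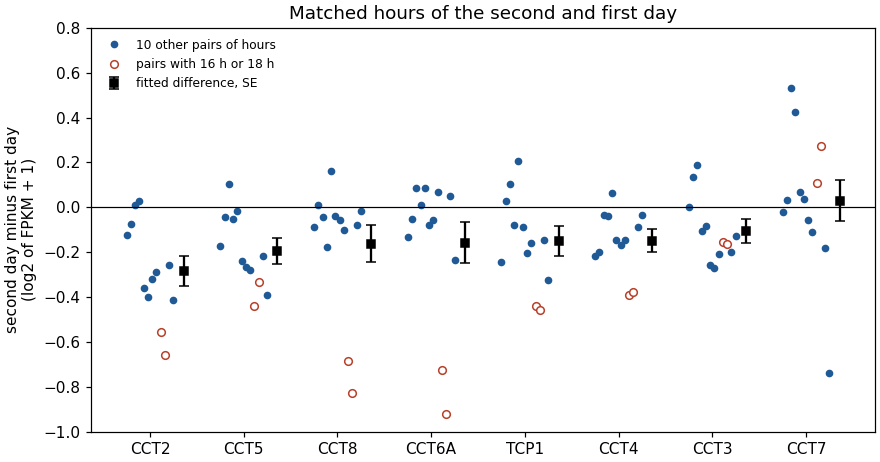
Difference between matched hours, second day minus first, on the log2(FPKM + 1) scale (vertical axis) for each subunit. Dots are the 12 pairs of hours, open where the pair holds 16 h or 18 h, and squares with bars are the difference fitted by limma with its standard error; CCT2 at −0.28 and CCT5 at −0.19 lie lowest, and CCT7 lies at 0.03.

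Whether the subunits moved together was described by the Pearson r of log2(FPKM + 1) over the 22 hours other than 16 h and 18 h. The points are single libraries in order of time and share the drift of the culture, so no p is given. The median r over the 28 pairs of subunits was 0.377, with 25 of 28 above 0 and 11 above 0.5. By rank, as Spearman's rho, the median was 0.379. After upper-quartile scaling the median r was 0.286, with 24 of 28 above 0 and 7 above 0.5. The r between pairs of other genes is not given here. In the values as deposited, CCT2 and CCT5, the members called lower on the second day, had the highest r at 0.859. TCP1 followed with CCT5 at 0.784 and with CCT8 at 0.716. CCT7 had the lowest values, −0.29 with CCT4, −0.29 with CCT8 and −0.05 with CCT3. These rested on 22 h, 28 h and 30 h, and without them, over 19 hours, CCT7 had an r of 0.180 with CCT4, 0.731 with CCT8 and 0.314 with CCT3.

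Against the mean Z-score of the other 7 members, r was 0.903 for TCP1, 0.884 for CCT5, 0.694 for CCT2, 0.517 for CCT3, 0.478 for CCT6A, 0.411 for CCT4, 0.404 for CCT8 and 0.143 for CCT7. The median of the members was 0.498, beside a median of 0.133 for the 7161 other genes at this level, each taken against all 8 members. TCP1 and CCT5 thus lay nearest to the common course and CCT7 farthest from it. With 16 h and 18 h included, the median r over the 28 pairs was 0.571, and CCT6A with CCT8 went from 0.103 to 0.937. Without 22 h, 28 h and 30 h as well, over 19 hours, the median was 0.509 and 28 of 28 pairs were above 0, a choice made after the values were seen.

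**Figure D5:**
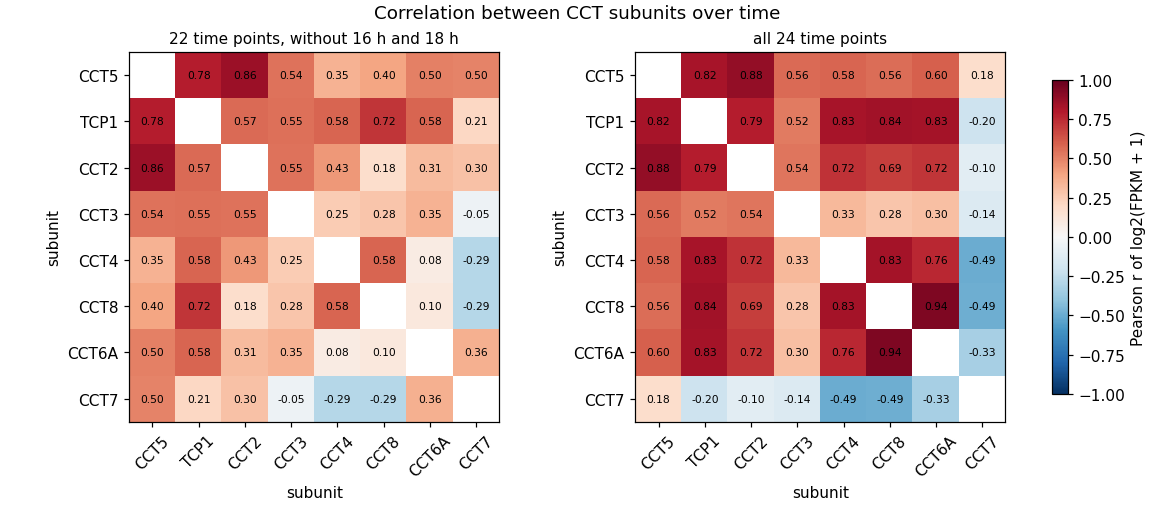
Pearson r of log2(FPKM + 1) between each 2 subunits over 22 hours (left) and over all 24 (right), with rows and columns as subunits and colour from −1 (blue) to 1 (red). CCT6A with CCT8 is pale on the left at 0.103 and dark on the right at 0.937, and the row of CCT7 is blue or pale in most cells of both.

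CCT7 stood apart at 22 h, 28 h and 30 h, hours picked after its values were seen. It had 498 FPKM at 22 h, 452 FPKM at 28 h and 460 FPKM at 30 h. At 20 h, 24 h, 26 h and 32 h it had 319 to 338 FPKM. The 3 libraries were thus above all their neighbours, by 1.41-fold in the mean. CCT7 was the 1 of 8 members at 1.3-fold or more above its neighbours, beside 3.98% of all genes, and 97.9% of genes had a lower value than CCT7. CCT2 and CCT5 were at 1.07-fold each, CCT6A at 1.05-fold, and TCP1, CCT3, CCT4 and CCT8 at 0.92-fold to 0.97-fold.

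Among the genes that reached a mean of 10 FPKM, the 5 outside the complex with the course most like the mean Z-score of the members over the 22 hours were DDX21 (r = 0.894), SMARCA4 (0.886), RPF1 (0.877), CDV3 (0.866) and DNTTIP2 (0.864). DDX21 is a nucleolar RNA helicase, SMARCA4 is the ATPase of BAF chromatin remodellers, and RPF1 and DNTTIP2 encode factors of ribosome assembly. DDX21 had its lowest level at 4 h (221 FPKM) and its highest at 10 h (296 FPKM). RPF1, CDV3 and DNTTIP2 were lowest at 46 h, where 4 of the 8 members were lowest too. Of the 5 genes, CDV3 was called lower on the second day (−0.22, limma adjusted p = 0.0240).

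The genes that feed, regulate or use CCT were counted from lists of named genes, with calls over all 24 libraries only. Over all genes, limma called 5.15% lower and 9.44% higher on the second day, and JTK called 13%. At 16 h and 18 h, 8.95% of all genes lay 2-fold or more above their flanks and 7.11% below. These shares apply to the list counts of calls and of 2-fold genes. Of 6 prefoldin subunits, 0 were called lower on the second day by limma and 1 was called higher, PFDN6 (0.30, limma adjusted p = 0.0183). At an unadjusted p of 0.05 or below the counts were 2 lower and 1 higher. At 16 h and 18 h PFDN1 lay highest, at 1.45, and PFDN6 lowest, at −0.66. PFDN2 was closest in course to the members (r = 0.726) and PFDN6 farthest (−0.35). In the related complex around URI1, 4 of 5 listed genes were in the table and limma called 0 in either direction (1 lower and 0 higher at an unadjusted p of 0.05 or below). JTK called 1, PDRG1 (adjusted permutation p of 0.0325). Its members split at 16 h and 18 h, where RPAP3 lay at 1.49 and URI1 at 1.06 while PDRG1 lay at −1.40.

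Of 5 cofactors of CCT, the phosducin-like proteins and PDCD5, 1 was called lower on the second day by limma and 0 were called higher (2 and 0 at an unadjusted p of 0.05 or below). The gene called was PDCL3, a cofactor of tubulin folding, at −0.42 (limma adjusted p = 0.00496). PDCL3 had a mean of 12.6 FPKM, some way below the subunits, and its r with their mean Z-score was 0.611. PDCD5 lay highest of the list at 16 h and 18 h, at 1.02.

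Among the clients, 1 of 12 tubulin genes was called lower on the second day, TUBA1B (−0.27, limma adjusted p = 0.0103), and 0 were called higher, with the same counts at an unadjusted p of 0.05 or below. TUBA1B, a main alpha tubulin of dividing cells, also had the highest r of the list with the members, 0.731. JTK called 3 of the 12 tubulin genes, TUBB4B with an adjusted permutation p of 0.00564, TUBB with 0.0104 and TUBG1 with 0.0226, at phases of 8 h, 10 h and 10 h. Of 6 genes of actin and actin-related proteins, limma called 0 lower and 0 higher (1 and 1 at an unadjusted p of 0.05 or below), and JTK called 3, ACTG1 (0.00259), ACTB (0.0359) and ACTR2 (0.0479). ACTB, cytoplasmic beta actin, had a mean of 2024 FPKM, and its r with the members was 0.077. The actin genes as a list had a median r of −0.05 and the tubulin genes one of 0.469.

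Of 12 WD40 proteins and other clients, limma and JTK called 0 each. At an unadjusted p of 0.05 or below, limma had 1 lower and 2 higher. JTK had 2 at an unadjusted permutation p of 0.05 or below, beside 30.2% of all genes. VHL, the substrate receptor of a ubiquitin ligase, had the lowest r of the list with the members (−0.59) and was highest at 46 h, where the mean Z-score of the members was lowest. GNB1, a G protein beta subunit, had the highest r at 0.446. Of 5 tubulin cofactors in the table, which act on tubulin after CCT, limma called 0 (1 lower at an unadjusted p of 0.05 or below) and JTK called 2, TBCB (adjusted permutation p of 0.0188) and ARL2 (0.0168), both with a phase of 6 h. Their median deviation at 16 h and 18 h was −0.42, and 1 of 5, TBCA at 0.83, lay above its flanks.

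The HSP70 and HSP90 chaperones that work upstream of or beside CCT had the highest median r with the members among the lists of chaperones, cofactors and clients, 0.664 over 14 genes. STIP1, which links HSP70 to HSP90, had 0.849, HSP90AB1 had 0.831 and HSPA8 had 0.813. Limma called 1 of the 14 lower on the second day, HSF1, the main transcription factor of the heat shock response, at −0.23 (limma adjusted p = 0.0202), and 0 higher. At an unadjusted p of 0.05 or below, 6 of the 14 were lower and 0 higher. JTK called 3, BAG2 (adjusted permutation p of 0.00508), AHSA1 (0.0144) and HSPA1A (0.0168), and 9 were below an unadjusted permutation p of 0.05, beside 30.2% of all genes. HSPA8, the constitutive HSP70, had 3468 FPKM at 16 h and 3777 FPKM at 18 h, against at most 1854 FPKM at the other hours. In this list 4 of 14 genes lay 2-fold or more above their flanks and 1 below, and its median deviation was 0.52. These were led by HSPH1 at 1.28, and the gene below was HSPA1B at −1.14, a near-identical copy of HSPA1A (1.20), so that the values of this pair are uncertain. The mitochondrial chaperonin and its partners, 4 genes, had a median of 1.10, with HSPD1 at 1.68 and HSPE1 lowest at −0.36. Of the 4, 2 lay 2-fold or more above their flanks and 0 below. Limma called 0 of the 4, also at an unadjusted p of 0.05 or below. The 14 subunits of the 20S proteasome core, the other large ring complex listed, had a median of −0.25, 0 lay 2-fold above, 1 lay 2-fold below, and their median r with the CCT members was 0.473. Limma called 0 of the 14, and 2 were lower and 0 higher at an unadjusted p of 0.05 or below.

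Some values may share reads with other genes, since the table does not say how such reads were assigned. GENCODE 29 names 4 pseudogene copies of CCT6A, of which CCT6P1 (median 5.45 FPKM) and CCT6P3 (1.57 FPKM) were in the table. At 16 h and 18 h, where CCT6A stood highest, CCT6P1 deviated by −0.05 and CCT6P3 by 0.22. Copies named for TCP1, CCT4, CCT5, CCT7 and CCT8 were not analysed here. TCP1 overlaps ACAT2 on the opposite strand, which had a median of 126 FPKM, and CCT4 overlaps COMMD1 at 9.92 FPKM and CCT3 holds TSACC at 1.67 FPKM. Without a stated use of strand, reads of such partners cannot be told apart. ACAT2 was called higher on the second day (0.22, limma adjusted p = 0.0399), while TCP1 differed by −0.15.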

How the data were processed

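The authors aligned the reads with STAR and quantified and normalized them with Cufflinks and Cuffnorm. The submitters' processing notes name build GRCh37, the study's methods name Cufflinks2, and other versions and the annotation are not given in the sources used here. The deposited expression values are FPKM, of 12285 genes that each reach 1 FPKM in at least 12 time points. The second deposited table holds a score, the Z-score of each gene, quantile normalized afterwards by the authors, and was used only as an alternative. FPKM was used as deposited, on log2(FPKM + 1) for deviations, differences and correlations, which understates changes of low genes. Libraries were assigned to time points from the labels.

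The members, the lists and the tests were chosen with earlier results of these data known. Named genes are the 8 members, the listed genes highest or lowest in deviation, day difference or r, the 5 most alike, and the cyclin references. Other listed genes that are named because a test called them, and URI1, HSPA8, HSP90AB1, HSPA1A, ACTB, TBCA, CD3D, COL1A2 and ACAT2, were named after their values were seen, as were 22 h, 28 h and 30 h. The lists are the CCT-like proteins, prefoldin, the prefoldin-like complex, phosducin-like cofactors with PDCD5, actin, tubulin, tubulin cofactors, WD40 and other clients, HSP70 and HSP90 partners, the mitochondrial chaperonin, the 20S proteasome core, cyclin references and markers of K562, lymphoid cells and fibroblasts.

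The JTK statistic compares the order of the libraries with cosines of 24 h at 12 phases and keeps the highest Kendall S, with a p-value from 100000 orderings. Day differences came from limma 3.58.1 (R 4.3.3; lmFit, eBayes with trend) over 12253 genes, Benjamini-Hochberg adjusted, with calls at 0.05 or below. GC content is that of the longest protein-coding transcript in GENCODE 29, known for 12180 genes, and its trend was removed by lowess (span 0.3, statsmodels 0.14.6). The deviation, the JTK statistic and the day fit were tested on simulated data, with noise independent between hours. Alternatives were other scalings, a pseudocount of 0.1, a filter at 10 FPKM, other hours, flanks, thresholds and periods, PCHIP interpolation of 16 h and 18 h, no block, and a linear slope.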

Additional observations from a re-analysis of the deposited data

How the results depend on the processing

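Of 228 values under alternatives, 182 had the same sign and call or moved by less than the spread between libraries, 30 moved, 9 lost a call, 2 gained one and 5 changed sign. The median deviation of the members at 16 h and 18 h was 0.18 after median centring, 0.053 after upper-quartile scaling and −0.053 with the GC trend removed. CCT5 was at −0.086 after upper-quartile scaling, and TCP1 at −0.034, CCT4 at −0.071 and CCT5 at −0.18 with the GC trend removed. At 1.5-fold 2 members lay above their flanks, against 0 at 2-fold. Why the scaling and the GC trend moved these values was not tested. JTK called 1 member, CCT3, without 16 h and 18 h, after PCHIP interpolation, in the cleaned table and without 16 h, 18 h, 22 h, 28 h and 30 h, the last chosen after seeing the data. Of the 12285 genes JTK called 1993, 2264, 1551 and 2438 in these settings, in that order. At periods of 20 h and 28 h it called 0 members (2 and 3 at an unadjusted permutation p of 0.05 or below), against 2 at 24 h. Over all genes it called 239 at 20 h, 410 at 28 h and 1602 at 24 h. The unadjusted counts at 20 h and 28 h have no share over all genes here. Without 16 h, 18 h, 40 h and 42 h limma called 1 member lower, CCT2, against 2. Of the 12253 genes it called 862 lower, against 631. The median r between subunits was 0.571 over all 24 time points, 0.481 after median centring, 0.286 after upper-quartile scaling and 0.509 over 19 time points. The cause of these changes was not tested. Without the block of hours limma called the same number of members, and 809 of the 12253 genes lower. No paired analysis of replicates was possible because each time point has 1 library. Depth is unknown and limits no statement by a number.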

Other observations

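Of the 5 listed genes of proteins related to CCT subunits, 3 were in the table, and CCT6B and CCT8L2 were not. The 3 present, MKKS, BBS10 and BBS12, act in the assembly of the Bardet-Biedl complex at the cilium. MKKS had a mean of 27.6 FPKM, BBS10 7.02 FPKM and BBS12 1.88 FPKM. Limma called 0 of the 3 in either direction on the second day (1 lower and 0 higher at an unadjusted p of 0.05 or below), and JTK called BBS12 (adjusted permutation p of 0.0432). At 16 h and 18 h BBS10 deviated by 0.83, MKKS by 0.38 and BBS12 by 0.13.

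The make-up of the summed CCT level also differed at 16 h and 18 h. CCT8 was 12.8% to 15.4% of the sum at the other 22 hours, 16.97% at 16 h and 18.99% at 18 h. CCT6A was 10.3% to 12.3% there, 14.9% at 16 h and 15.2% at 18 h. CCT5 was 12.0% to 13.7% there, 11.96% at 16 h and 11.1% at 18 h, and CCT3 was 10.05% to 13.4% there, 9.75% at 16 h and 9.47% at 18 h. CCT7 was 9.17% to 14.2% there, 6.70% at 16 h and 5.85% at 18 h. TCP1, CCT2 and CCT4 stayed within their ranges of the other hours. These shares rest on values that follow GC content in the same libraries, whose part was not tested.

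The cyclin references followed other courses than the members, with an r with their mean Z-score of −0.27 for CCNE2 and 0.035 for CCNB1.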
